A study of Mus musculus with 44 samples.

Results

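The genes that lie within 10 Mb of Arntl on mouse chromosome 7 were followed in kidneys of wild-type mice (WT) and of mice with a knockout of Arntl (KO). They were chosen by position and by mean level, as the genes of the GENCODE M21 annotation that overlap chr7:103207465-123314126 of the GRCm38 build, which is the Arntl gene body (chr7:113207465-113314126) with 10 Mb on each side. Genes set aside by name, 14 in all, were left out (Arntl, Umod, Scnn1b, Scnn1g, Acsm3, Wee1 and symbols that begin with Rps, Rpl, Psm, Cyp, Uqcr or Nduf), and a mean of at least 1 TPM over all 24 libraries was required. TPM is an abundance scaled for transcript length and to the same total in each library. Of 366 candidate genes, 158 were listed at 0 in every library, 99 had a mean below 1 TPM, and 109 passed. They stand among 12874 genes of the whole genome that passed the same limit. The limit was applied to the mean of both genotypes together, so it used no difference between them, but 7 of the 109 had a mean below 1 TPM in 1 genotype (Usp17lc, Trim34a, Dnhd1, Gvin1, Gm8995, Xylt1 and Gm9905) and could pass partly through the other. Just inside the limit were Gm8995 at 1.08, Gm9905 at 1.09 and Dnhd1 at 1.14 TPM, and just outside it were Calca at 0.955, Pdilt at 0.947 and Rassf10 at 0.933 TPM. At the edges, Usp17lc lay 9.79 Mb below Arntl (towards lower coordinates) and Arhgap17 9.97 Mb above it, while Trim68 at 10.52 Mb below and Lcmt1 at 10.06 Mb above were outside.

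Arntl (Bmal1) is the gene of a transcription factor that pairs with CLOCK, binds the DNA word CACGTG (the E-box) and drives the transcription of circadian clock genes. A gene knockout is made in embryonic stem cells of a given mouse strain, and when the allele is bred into another strain the DNA beside it travels with it. Genes beside a targeted locus can therefore differ between knockout and control animals through the strain of origin as well as through the loss of the targeted protein. The 20 Mb window holds a large olfactory receptor cluster, the beta-globin genes, a cluster of antiviral TRIM genes, and a cluster of medium-chain acyl-CoA synthetases that is active in kidney.

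Polyadenylated kidney RNA was sequenced in 24 libraries from mice aged 8 to 12 weeks, 12 WT and 12 KO, with 2 libraries, A and B, at each of zeitgeber times (ZT) 0, 4, 8, 12, 16 and 20, in hours after lights-on. All mice, controls included, are labelled as strain 129SV and were held on night-restricted feeding, and no other allele or agent is given in the labels. The knockout allele, the strain in which it was made and the number of backcrosses are not given in the sources used here, so strain DNA and loss of the Arntl protein cannot be told apart by these groups. Nothing says whether A and B came from separate animals, so the p-values measure the spread between these libraries. The depth of TPM columns is unknown.

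Arntl RNA was present in both genotypes. It ran from 0.295 to 12.9 TPM over the WT libraries, highest at ZT0 and lowest at ZT12, and stayed between 4.19 and 6.28 TPM in the KO libraries. Compared at the same time, the genotypes were apart at ZT0, 8, 12, 16 and 20. At ZT12 it read 0.295 and 0.527 TPM in WT and 5.94 and 5.70 in KO. At ZT4 it read 6.16 and 4.71 TPM in WT and 6.28 and 4.98 in KO, so its level does not check the labels at that time. Cry1, a clock repressor, read 11.5 to 17.8 TPM in 11 KO libraries, above every WT library (0.551 to 6.64), but 1.03 TPM in the library labelled KO ZT4 A. Nr1d1, a clock gene activated through E-boxes, read 1.23 to 3.46 TPM in the same 11 libraries, against 23.8 TPM in that library and 22.0 and 33.0 TPM in the WT libraries at ZT4. The library labelled KO ZT4 A therefore goes against its label at these genes, and the main counts below are given with and without it. Gene list counts and most changes of single genes are given with it only. A second library stood apart in another way. The summed level of 4 Y-linked genes was 3.31 TPM in the library labelled KO ZT12 A and 48.0 to 69.1 TPM in the other 23. Xist had no value above 0 in any library. Whether it was measured at 0 or is missing from the transcripts used was not checked, so Xist does not tell the sex of these libraries. Over all genes, markers of the thick ascending limb (3 of 3 genes), distal convoluted tubule (3 of 3), collecting duct (4 of 4), podocytes (3 of 3) and erythroid cells (3 of 4 at 1 TPM or more) rose in KO. These are calls in TPM, where 50.9% of all genes were called higher. Of 5 proximal tubule markers 1 rose and 1 fell, and of 3 endothelial markers 1 rose. The thick ascending limb sum had a median of 302 TPM in WT (260 to 344) and 523 TPM in KO (289 to 668), with the library labelled KO ZT4 A at 289. Their part in the results below was not tested. In whole kidney, fewer cells of a type and less RNA per cell cannot be told apart.

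Between genotypes, 71 of the 109 genes differed at an adjusted p-value under 0.05 (65.1%; all genes tested: 60.9%), by limma on log2(TPM + 0.1) with time in the model and Benjamini-Hochberg adjustment over all 12874 genes. Of these, 53 were higher in KO (50.9% of all genes tested were called higher) and 18 were lower (10.0% of all genes). The share called was thus near the background of the whole genome. The median change was 0.15 log2 units in KO minus WT, the same as the 0.15 over all genes, and the median absolute change was 0.24 against 0.20. Among the 102 genes with a mean of 1 TPM or more in both genotypes, 64 were called (50 higher, 14 lower). Shares over all genes were not computed under this stricter limit, here or below. Without the library labelled KO ZT4 A, 72 were called (54 higher, 18 lower), among them all 71, where 62.9% of all genes were called. Without that library and the one labelled KO ZT12 A, 71 were called.

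The direction of small changes depended on the scaling. TPM fixes the total of each library, and the median gene of the genome stood 0.15 log2 units higher in KO. Under median-of-ratios scaling, which sets that median near 0, 56 of the 109 were called (all genes: 44.1%), 26 higher and 30 lower, and their median change was 0.00. Under both scalings 44 genes were called in the same direction, 26 higher and 18 lower. A further 6 genes called in TPM had the opposite sign under median-of-ratios scaling, without a call there. All 18 genes lower in TPM were lower under both. The counts for gene lists below are given under both scalings, and stand against 50.9% of all genes called higher and 10.0% called lower in TPM, and 21.4% higher and 22.6% lower under median-of-ratios scaling.

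Large changes were counted apart. A change of at least 1 log2 unit past the threshold was found for 8 of the 109 (7.34%; all genes: 2.93%), 3 higher (all genes: 1.45%) and 5 lower (all genes: 1.48%). They were Usp17lc, Insc and Mical2 (higher) and Gvin1, Trim12a, Nucb2, Xylt1 and Trim34a (lower). In the 102 genes at 1 TPM or more in both genotypes the count was 4 (3.92%), made of Insc, Mical2, Trim12a and Nucb2. With a pseudocount of 1 TPM in place of 0.1, 4 of the 8 stayed past that size (Usp17lc, Gvin1, Trim12a and Nucb2). The plot of change against distance places them on both sides of Arntl. Without the library labelled KO ZT4 A, 8 of the 109 again passed 1 log2 unit, as did 426 of all genes.

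**Figure D1:**
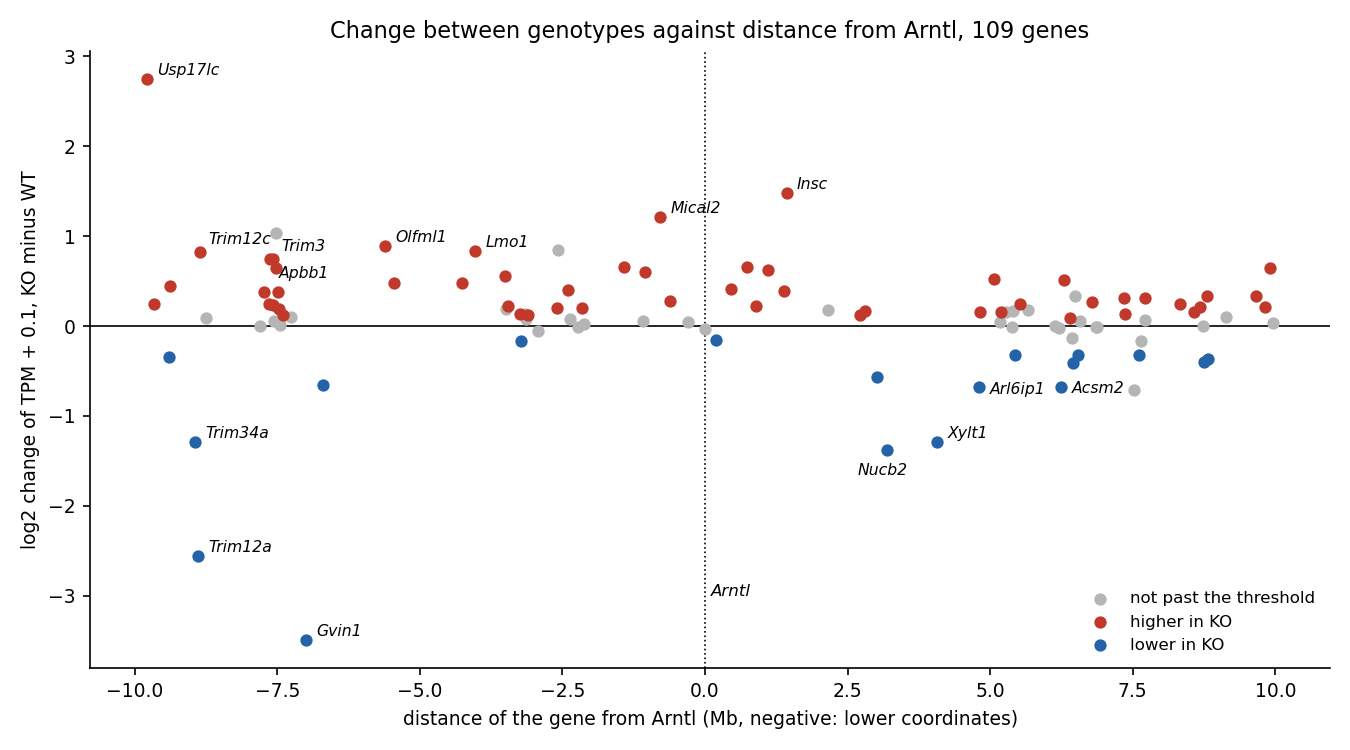
Change between genotypes (KO minus WT, log2 of TPM + 0.1) of each of the 109 genes against its distance from Arntl in Mb. Each point is a gene, red where higher and blue where lower in KO at an adjusted p-value under 0.05; the largest falls, Gvin1 and Trim12a, lie 6.99 and 8.89 Mb below Arntl, while Nucb2 and Xylt1 lie 3.19 and 4.07 Mb above it.

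The E-box CACGTG was searched for in the 250 bases upstream of annotated starts, where RefSeq promoter sequence of GRCm38.p6 matched 79 of the 109 genes by symbol and place. The word reads the same on both strands. It was present for 10 of the 79 (12.7%), against 9.92% of 9594 matched genes of the genome, so the share was near the background. The 10 were Ilk, Eif3f, Akip1, Ipo7, Ampd3, Mical2, Acsm5, Eef2k, Usp31 and Ubfd1, of which 6 differed between genotypes (all genes: 60.9%) and 3 (Akip1, Acsm5 and Ubfd1) passed the test for a 24 h rhythm in WT (all genes: 13.7%). Among all 79 matched genes, 50 differed and 12 passed the test for a rhythm. A match is a description of the sequence only. The upstream bases are printed for Mical2, the gene of the largest change among them, for Eif3f, which separated without the library labelled KO ZT4 A, and for the 3 rhythmic genes, 5′ to 3′ in lower case with each CACGTG in capitals.
Mical2, chr7:112225586-112225835, plus strand: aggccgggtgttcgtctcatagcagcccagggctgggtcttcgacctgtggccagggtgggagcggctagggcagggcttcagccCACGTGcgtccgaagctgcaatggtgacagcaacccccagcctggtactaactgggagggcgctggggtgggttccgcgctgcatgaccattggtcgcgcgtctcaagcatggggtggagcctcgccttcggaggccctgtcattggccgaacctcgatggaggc
Eif3f, chr7:108934165-108934414, plus strand: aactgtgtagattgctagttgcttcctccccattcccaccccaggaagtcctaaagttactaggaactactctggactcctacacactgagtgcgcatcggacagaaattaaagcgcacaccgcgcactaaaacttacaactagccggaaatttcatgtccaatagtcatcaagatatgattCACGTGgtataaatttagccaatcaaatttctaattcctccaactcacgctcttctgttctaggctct
Akip1, chr7:109703428-109703677, plus strand: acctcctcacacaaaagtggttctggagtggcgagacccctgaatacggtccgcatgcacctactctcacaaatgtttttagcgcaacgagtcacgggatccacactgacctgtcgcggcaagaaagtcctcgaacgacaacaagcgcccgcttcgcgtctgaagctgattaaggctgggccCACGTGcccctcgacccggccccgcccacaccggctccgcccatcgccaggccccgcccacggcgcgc
Acsm5, chr7:119526015-119526264, plus strand: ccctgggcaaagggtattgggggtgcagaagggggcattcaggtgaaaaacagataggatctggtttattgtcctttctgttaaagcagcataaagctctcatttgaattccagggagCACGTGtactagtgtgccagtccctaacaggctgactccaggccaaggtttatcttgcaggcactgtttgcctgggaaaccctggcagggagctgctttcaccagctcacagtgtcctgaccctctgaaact
Ubfd1, chr7:122066948-122067197, plus strand: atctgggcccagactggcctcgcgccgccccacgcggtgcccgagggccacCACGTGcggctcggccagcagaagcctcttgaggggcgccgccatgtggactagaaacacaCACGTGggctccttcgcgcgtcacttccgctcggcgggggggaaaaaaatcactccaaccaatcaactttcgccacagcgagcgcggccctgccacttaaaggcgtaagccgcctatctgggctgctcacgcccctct

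The 6 measured genes of the interferon-induced GTPase and TRIM list, which lie 6.99 to 8.95 Mb below Arntl, included the largest falls. Of these, 3 fell, 2 rose and Trim30a did not pass the threshold (log2 change 0.09, adjusted p = 0.499), and the median change was -0.60 against 0.15 over all genes. The counts were the same under median-of-ratios scaling. Gvin1, a very large interferon-inducible GTPase, lies at chr7:106156556-106215326 on the minus strand. It ran from 0.997 to 3.24 TPM in WT (median 2.03). It was listed at 0 in 8 KO libraries, at 0.0378 TPM in the library labelled KO ZT20 B, at 0.690 in KO ZT16 B, at 0.925 in KO ZT20 A and at 1.65 in the library labelled KO ZT4 A. Only the last lay in the WT range. Its fitted change was -3.49 ± 0.48 (SE, adjusted p = 6.61e-06), with values of -1.35 at a pseudocount of 1 TPM and -5.80 at 0.01, since most KO libraries were listed at 0. Gvin1 shares 99.0% of its 31-base words with the neighbouring Gm4070, so the split of reads between them is uncertain. Gm4070 did not pass the threshold (0.10 ± 0.14, adjusted p = 0.561). It was not put in this list, so the list median of -0.60 leaves out this near-identical gene. The sum of both genes was 3.001 to 5.79 TPM in WT (median 4.23) and 1.51 to 3.75 TPM in KO (median 2.54), with overlap.

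Trim12a, a gene of the TRIM5 group of antiviral ring-finger proteins, lies at chr7:104299894-104315466 on the minus strand. It ran from 2.58 to 7.31 TPM in WT (median 5.21). In KO, 9 libraries read 0.265 to 0.537 TPM, whereas the libraries labelled KO ZT4 A, KO ZT16 B and KO ZT20 A read 6.79, 4.23 and 3.37 TPM, inside the WT range. The change was -2.56 ± 0.48 (adjusted p = 0.000215) over all libraries and -2.83 ± 0.42 without the library labelled KO ZT4 A. Trim34a, a neighbour of the same family at chr7:104244457-104262234 on the plus strand, showed the same libraries apart. It ran from 0.863 to 2.39 TPM in WT, from 0.359 to 0.718 TPM in 9 KO libraries, and read 1.90, 1.60 and 1.40 TPM in those 3 (change -1.29 ± 0.26, adjusted p = 0.000319). For Trim34a, 48.7% of the 31-base words are shared with Trim34b.

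Trim12c and Trim3 changed the other way. Trim12c read 2.24 to 3.28 TPM in WT and 4.36 to 5.92 TPM in 11 KO libraries, with 3.02 in the library labelled KO ZT4 A (change 0.83 ± 0.08, adjusted p = 3.91e-07), and in it KO ZT16 B (4.36) and KO ZT20 A (4.43) were the lowest of the 11. Trim12c shares 46.2% of its words with other genes, most of them with Trim5 (38.7%). Trim12a shares 15.1%, also most with Trim5 (7.77%). The sum of Trim12a and Trim12c was 5.02 to 10.3 TPM in WT and 4.78 to 9.81 TPM in KO, so the summed ranges overlapped. Trim5 is not in this sum, which therefore does not settle how reads were split. Trim3, a brain-enriched TRIM protein with a role in vesicle traffic, read 12.6 to 20.6 TPM in WT and 20.8 to 32.5 TPM in 11 KO libraries, with 17.9 in the library labelled KO ZT4 A (change 0.75 ± 0.09, adjusted p = 2.38e-06). Immune markers were lower in KO for 2 of 4 genes at 1 TPM or more, and their sum was 146 to 307 TPM in WT and 108 to 197 TPM in KO. Their part in the TRIM and GTPase changes was not tested.

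**Figure D2:**
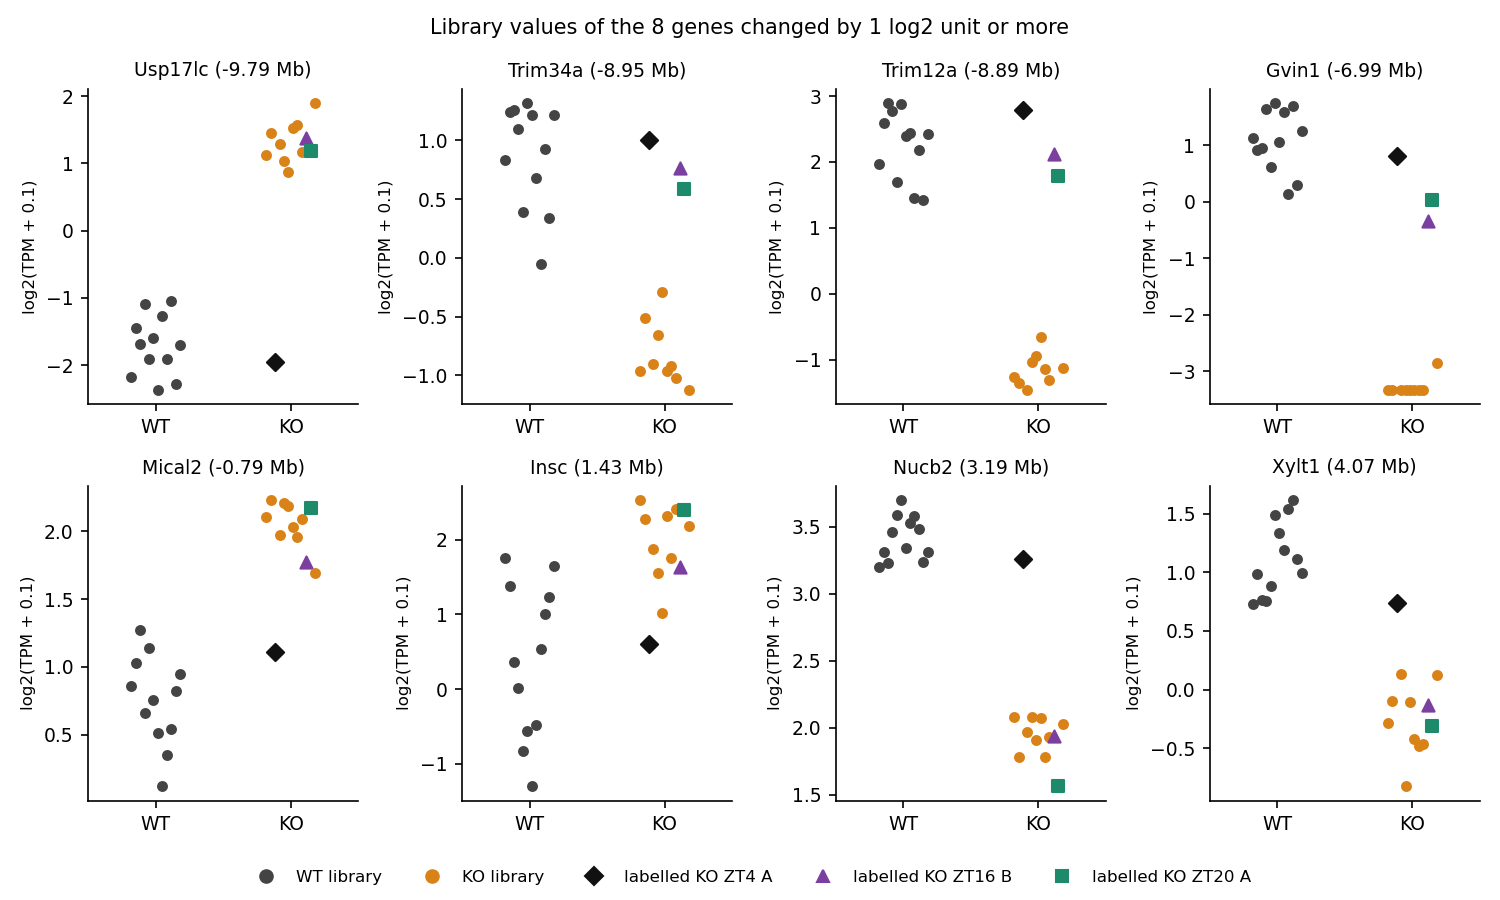
Level in each library, as log2(TPM + 0.1), of the 8 genes changed by 1 log2 unit or more, ordered by distance from Arntl; each point is a library, 12 WT and 12 KO, and 3 KO libraries have marks of their own. The library labelled KO ZT4 A sits in the WT range for all 8, and KO ZT16 B and KO ZT20 A sit in it for Trim34a and Trim12a but not for Usp17lc, Mical2, Nucb2 or Xylt1.

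Libraries were therefore placed against the WT range for the 26 genes called at 0.5 log2 units or more in TPM (17 higher, 9 lower), a size chosen after the values were seen. The library labelled KO ZT4 A lay inside the WT range for 19 of the 26. KO ZT16 B did so for 5 (Trim34a, Trim12a, Gm45799, Olfml1 and Insc) and KO ZT20 A for 4 (the same but Insc). The other 9 KO libraries did so for 0 to 3 genes, and Gm45799, a gene model that shares 93.7% of its words with other genes, was among them in 8. Trim34a, Trim12a and Olfml1 lie between 8.95 and 5.62 Mb below Arntl. By the WT range alone they do not form an unbroken stretch. Trim12c, Apbb1, Trim3, Gvin1 and Gm8995 lie between them and put both libraries outside that range. Some of these values lay near its edge. In KO ZT16 B and KO ZT20 A, Gvin1 read 0.690 and 0.925 TPM (lowest WT 0.997) and Gm8995 0.975 and 1.02 (lowest WT 1.06). Trim3 read 20.8 and 25.8 TPM (highest WT 20.6), Apbb1 7.59 and 7.20 (6.86) and Trim12c 4.36 and 4.43 (3.28). Whether DNA at these genes differed between KO libraries was not tested. From Lmo1 (4.03 Mb below) to Slc5a11 (9.90 Mb above), Insc at 1.43 Mb was the only one of the 26 that put either of these 2 libraries in the WT range. Olfml1, an olfactomedin-like secreted protein, read 3.28 to 6.43 TPM in WT, 5.68 in each of KO ZT16 B and KO ZT20 A, 4.56 in the library labelled KO ZT4 A and 6.80 to 11.6 in the other 9 (change 0.89 ± 0.16, adjusted p = 0.000103). The labels give no difference between these libraries and the other KO libraries beyond time and letter.

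At the low-coordinate edge, Usp17lc, a deubiquitinating enzyme of a multicopy family, rose the most. It lies at chr7:103415072-103419880 on the plus strand. It read 0.0943 to 0.387 TPM in WT and 1.73 to 3.62 TPM in 11 KO libraries, with no overlap, and 0.158 TPM in the library labelled KO ZT4 A. The change was 2.75 ± 0.32 (adjusted p = 1.17e-06), with 1.36 at a pseudocount of 1 TPM and 3.19 at 0.01, and 50.7% of its words are shared with Usp17ld. Of 159 olfactory receptor genes among the candidates, Olfr613 was the 1 that passed the limit on level, and it rose (0.24 ± 0.06, adjusted p = 0.00158; 1.33 to 1.96 TPM in WT, 1.75 to 2.31 in KO), a call lost under median-of-ratios scaling (0.10, adjusted p = 0.125). The 2 beta-globins had opposite signs in TPM. Hbb-bs rose (0.44 ± 0.15, adjusted p = 0.0168), from 311 to 780 TPM in WT (median 484) and 435 to 1119.9 TPM in KO (median 649.6), while Hbb-bt fell (-0.34 ± 0.13, adjusted p = 0.0333), from 55.3 to 175 TPM in WT and 35.3 to 102 TPM in KO. Their ranges overlapped, Hbb-bs shares 54.4% and Hbb-bt 59.4% of their words with each other, Hbb-bs did not pass under median-of-ratios scaling (0.29, adjusted p = 0.111), and Hbb-bt missed the threshold in 8 of 24 fits that each left out a library. The erythroid marker sum also rose, from a median of 669 TPM in WT to 914 TPM in KO, and its part in the globin values was not tested.

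All 10 genes of the list named Golgi and secretory traffic, which also holds the peroxisomal enzyme gene Far1, differed in TPM (all genes: 60.9%). Of these, 5 rose and 5 fell, and the median change was -0.01 against 0.15 over all genes. Under median-of-ratios scaling 2 were called higher and 5 lower. The largest falls of this list lie close together above Arntl. Nucb2 encodes nucleobindin 2, a calcium-binding Golgi protein and the precursor of nesfatin, and lies at chr7:116504369-116540584 on the plus strand. It read 9.11 to 12.9 TPM in WT (median 10.5) and 2.85 to 4.14 TPM in 11 KO libraries, with 9.47 in the library labelled KO ZT4 A. The groups did not overlap without that library. The change was -1.38 ± 0.12 (adjusted p = 2.30e-07) with all libraries and -1.50 ± 0.06 without it. Xylt1, which starts the sugar chains of proteoglycans, lies at chr7:117380979-117673580 on the plus strand and read 1.56 to 2.96 TPM in WT, 0.464 to 0.997 in 11 KO libraries and 1.57 in that library (change -1.29 ± 0.15, adjusted p = 1.48e-06). Arl6ip1, an endoplasmic reticulum shaping protein at chr7:118118891-118129662 on the minus strand, read 216 to 283 TPM in WT, 127 to 177 in 11 KO libraries and 210 in that library, so that all 12 KO libraries lay below all WT libraries (change -0.68 ± 0.06, adjusted p = 2.30e-07). Far1, a peroxisomal fatty acyl-CoA reductase 0.20 Mb above Arntl, fell with overlapping libraries (40.9 to 69.3 TPM in KO, 55.4 to 72.4 in WT; change -0.16 ± 0.06, adjusted p = 0.0194). Galnt18, a Golgi glycosyltransferase, rose (0.66 ± 0.06, adjusted p = 3.49e-07), from 12.1 to 13.8 TPM in WT to 19.5 to 23.6 TPM in 11 KO libraries.

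Pik3c2a of the lysosome and endosome list, a class II phosphoinositide 3-kinase, lies beside Nucb2 at chr7:116337265-116443449 on the minus strand. It read 10.5 to 11.7 TPM in WT, 6.52 to 8.31 TPM in 11 KO libraries and 10.2 in the library labelled KO ZT4 A, all 12 below WT (change -0.56 ± 0.05, adjusted p = 3.75e-07). Pik3c2a, Nucb2, Xylt1 and Arl6ip1 are 4 consecutive members, 3.02 to 4.80 Mb above Arntl, and all 4 fell. Of the 7 measured genes of the lysosome and endosome list, 3 rose and 2 fell, with a median change of 0.01 against 0.15 over all genes. Under median-of-ratios scaling 0 were called higher and 4 lower, with a median of -0.14, so the balance of this list turned with the scaling. Tpp1, a lysosomal peptidase (49.3 to 57.6 TPM in WT, 50.4 to 60.5 in KO), and Gde1, a membrane phosphodiesterase (79.9 to 96.4 TPM in WT, 81.5 to 94.6 in KO), did not pass the threshold in TPM (adjusted p = 0.822 and 0.833). Both were among the 4 called lower under median-of-ratios scaling. Smpd1, the acid sphingomyelinase, rose by 0.25 ± 0.05 (adjusted p = 0.000622) in TPM and did not pass under median-of-ratios scaling (0.10, adjusted p = 0.129).

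Of 13 genes of actin, adhesion and small GTPase signalling, 9 rose and 0 fell in TPM (all genes: 50.9% higher, 10.0% lower), and the median change was 0.28 against 0.15 over all genes. Under median-of-ratios scaling 6 rose and 2 fell. Whether the list differed from other genes was not tested. Mical2, a flavin enzyme that oxidises actin, lies 0.79 Mb below Arntl at chr7:112225856-112413106 on the plus strand and is the third nearest member on that side. It read 0.987 to 2.31 TPM in WT (median 1.63) and 3.12 to 4.59 TPM in 11 KO libraries, with 2.06 in the library labelled KO ZT4 A (change 1.21 ± 0.12, adjusted p = 4.28e-07). Parva, an integrin-linked adhesion protein, rose by 0.28 ± 0.05 (24.1 to 30.1 TPM in WT, 29.0 to 37.3 in KO, adjusted p = 5.82e-05). Rras2, a small GTPase 0.73 Mb above Arntl, read 9.66 to 11.9 TPM in WT and 14.8 to 21.2 in 11 KO libraries (change 0.66 ± 0.07, adjusted p = 1.03e-06). St5, which holds a DENN domain that acts on Rab GTPases, read 6.01 to 8.18 TPM in WT and 8.36 to 11.9 in all 12 KO libraries (change 0.56 ± 0.06, adjusted p = 7.78e-07). Ilk, the integrin-linked kinase, rose by 0.19 ± 0.04 (adjusted p = 0.000628), a change that did not pass under median-of-ratios scaling (0.04, adjusted p = 0.403). Spon1, a secreted matrix protein, rose by 0.41 ± 0.14 (adjusted p = 0.0171), with overlapping libraries, and did not pass under median-of-ratios scaling (0.26, adjusted p = 0.109). Anks4b, a brush border scaffold protein, did not pass in TPM (-0.01 ± 0.06, adjusted p = 0.909).

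Insc, the adaptor that orients the mitotic spindle, was in the cell division list and lies at chr7:114743694-114850383 on the plus strand, 1.43 Mb above Arntl. It ran from 0.306 to 3.26 TPM in WT (median 1.27) and from 1.93 to 5.68 TPM in 11 KO libraries, with 1.42 in the library labelled KO ZT4 A. The ranges overlapped, since Insc also varied with time. The change was 1.48 ± 0.22 (adjusted p = 1.84e-05) and higher in KO at 6 of 6 times. The 1 transcript of Insc at 1 TPM or more is annotated as a retained intron and rose likewise (Insc-205, 1.47 ± 0.23, adjusted p = 6.01e-05). Of the other genes in this list, Dctn5, a dynactin subunit, fell by 0.37 on the log2 scale (adjusted p = 2.15e-06), Palb2 rose, and Ccp110 and Cdr2 did not pass in TPM. The list had 2 higher and 1 lower in TPM, and 1 higher and 2 lower under median-of-ratios scaling. Under that scaling Cdr2 was called lower together with Dctn5, and Palb2 did not pass (0.19, adjusted p = 0.213).

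Changes in the acyl-CoA synthetase cluster, 6.21 to 6.29 Mb above Arntl, were of opposite sign in adjacent genes. These enzymes activate medium-chain fatty acids and aromatic acids in mitochondria of the proximal tubule. Acsm2, the most abundant of the 109 genes at a mean of 1338 TPM, read 1423 to 1869 TPM in WT and 474 to 1392 TPM in 11 KO libraries, with 1545 in the library labelled KO ZT4 A, and fell by 0.68 on the log2 scale (SE 0.11, adjusted p = 4.49e-05). Its lowest value was in the library labelled KO ZT12 A, the one with Y-linked genes near 0, and the next lowest KO library read 853 TPM. Acsm1 read 57.5 to 94.7 TPM in WT and 101 to 148 TPM in 11 KO libraries, with 90.3 in the library labelled KO ZT4 A (change 0.52 ± 0.08, adjusted p = 2.36e-05). Acsm5 did not pass (-0.02 ± 0.07, adjusted p = 0.808). The proximal tubule marker sum was 1891 to 2262 TPM in WT and 1826 to 2509 TPM in KO. Slc5a11, a sodium-coupled inositol transporter of the renal tubule in the list of metabolic and signalling enzymes, rose (0.65 ± 0.10, adjusted p = 1.88e-05), from 69.1 to 99.0 TPM in WT to 98.4 to 169 TPM in KO. In that list 3 of 5 rose and 0 fell in TPM (median 0.40, all genes 0.15), 3 were higher and 1 lower under median-of-ratios scaling, and Crym and Rnf141 did not pass in TPM.

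The remaining lists had medians between -0.03 and 0.18. Of 12 genes of translation and RNA processing, 5 rose and 2 fell in TPM (median 0.12, all genes 0.15), and 1 was higher and 3 were lower under median-of-ratios scaling. Eif3f, a subunit of the translation initiation factor complex, read 38.2 to 45.8 TPM in WT and 48.3 to 68.5 TPM in 11 KO libraries, with 43.4 in the library labelled KO ZT4 A (change 0.48 ± 0.05, adjusted p = 4.57e-07). Eif4g2, a translation initiation scaffold at 302 to 389 TPM in WT and 330 to 380 TPM in KO, did not pass in TPM (0.03 ± 0.03, adjusted p = 0.454). Of 8 transcription and chromatin genes, 4 rose and 0 fell in TPM (median 0.15), and 2 were higher under median-of-ratios scaling. Apbb1, an adaptor of the amyloid precursor protein that also acts in the nucleus, read 3.99 to 6.86 TPM in WT and 6.93 to 10.97 TPM in all 12 KO libraries (change 0.74 ± 0.10, adjusted p = 3.62e-06). Rbbp6, a ubiquitin ligase that binds the retinoblastoma protein, rose by 0.33 ± 0.05 (adjusted p = 1.71e-05), and Taf10 and Ipo7 did not pass. Of 6 mitochondrial protein genes 2 rose and 0 fell in TPM (median 0.06), while 0 were higher and 2 lower under median-of-ratios scaling (median -0.09). Of the 2 that rose, the ribosomal gene Mrpl17 (0.13 ± 0.04, adjusted p = 0.0155) was -0.03 under that scaling. Of 5 ubiquitin pathway genes 1 rose and 2 fell in TPM (median -0.03), and 0 were higher and 3 lower under median-of-ratios scaling. Ubfd1 fell by 0.40 on the log2 scale (SE 0.06, adjusted p = 3.61e-05) and Dcun1d3 by 0.32 (SE 0.12, adjusted p = 0.0290), though Dcun1d3 missed the threshold in 7 of 24 fits that each left out a library. Of 5 secreted factors and receptors 1 rose under both scalings, the Wnt pathway modulator Dkk3 (0.60 ± 0.10, adjusted p = 6.05e-05; 3.12 to 5.53 TPM in WT, 5.58 to 8.11 in 11 KO libraries). Tmc5 and Gprc5b did not pass.

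**Figure D3:**
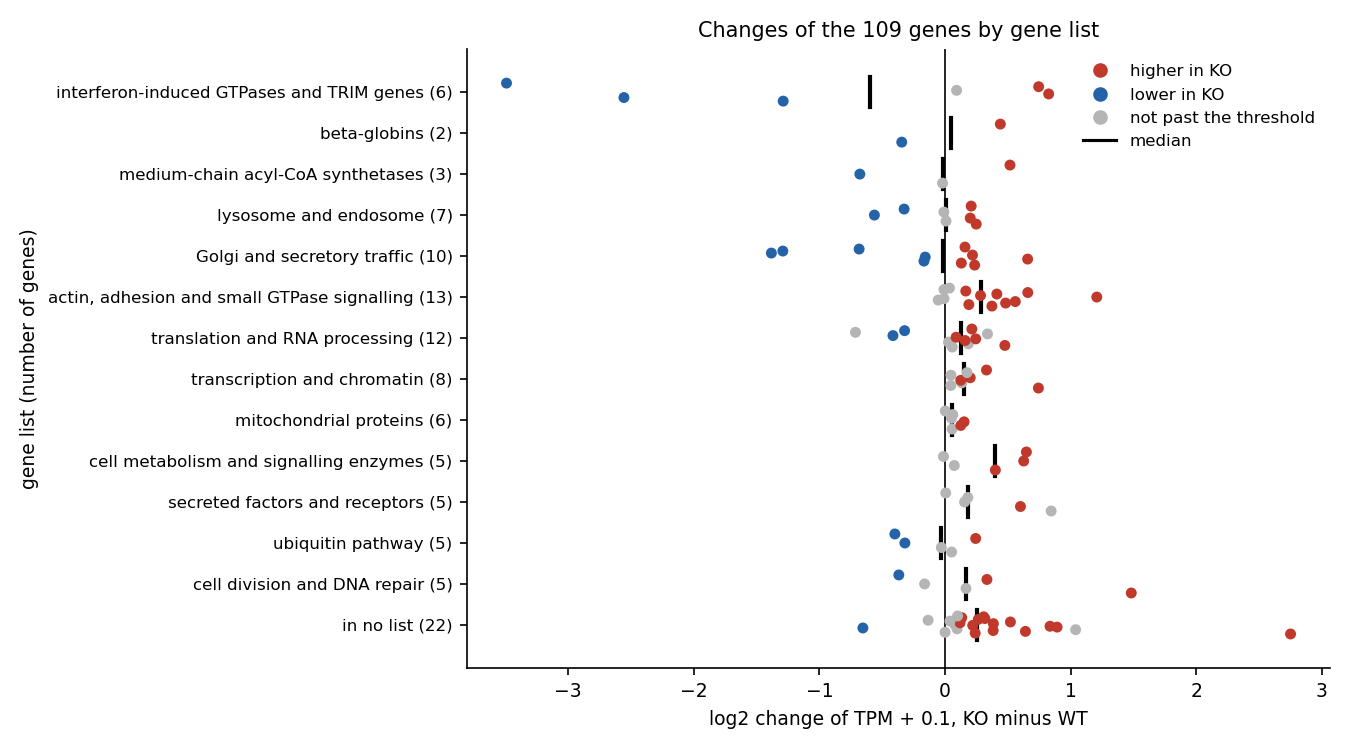
Change between genotypes (KO minus WT, log2 of TPM + 0.1) of the 109 genes by gene list, with the number of genes in brackets; points are genes and the black bar is the list median. The TRIM and GTPase list spreads from -3.49 to 0.83, and 9 of 13 genes of the actin and adhesion list lie above 0 past the threshold, against 50.9% of all genes.

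The 22 genes in no list included Lmo1, a LIM-domain transcription co-factor (0.84 ± 0.09, adjusted p = 9.08e-07; 0.906 to 1.66 TPM in WT, 1.63 to 3.27 in 11 KO libraries), and Gm8995, a transcribed pseudogene (-0.65 ± 0.13, adjusted p = 0.000259; 1.06 to 1.71 TPM in WT, 0.347 to 1.04 in all 12 KO libraries). Of the 22, 14 rose and 1 fell in TPM (all genes: 50.9% higher, 10.0% lower), and 7 were higher and 3 lower under median-of-ratios scaling. Gm15500, a processed pseudogene at 306 to 357 TPM in WT and 375 to 498 TPM in 11 KO libraries, rose by 0.39 ± 0.06 (adjusted p = 1.30e-05), but shares 99.9% of its words with its parent gene Rpl5, which rose by 0.40 ± 0.07 (adjusted p = 4.60e-05), so the 2 cannot be told apart. Over all 109 genes, 27 share more than 10% of their words with another gene and 10 more than 50%, and the median is 0.297%.

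The separation of libraries was used as a second view. All 12 KO libraries lay on one side of all 12 WT libraries for 5 of the 109 genes (4.59%; all genes: 1.67%), St5 and Apbb1 higher and Pik3c2a, Arl6ip1 and Gm8995 lower. Without the library labelled KO ZT4 A, 11 KO libraries were separate from WT for 24 genes (22.0%; all genes: 10.1%), 17 higher (all genes: 8.34%) and 7 lower (all genes: 1.77%). Of the 102 genes at 1 TPM or more in both genotypes, 20 were separate (19.6%). For the 24 genes, the library left out lay in the WT range in 19, between the groups in 5 and in the KO range in 0. On a scale where 0 is the WT mean and 1 the mean of the 11 KO libraries, its median position was 0.16 (-0.20 to 0.59). Over the 1302 genes of the genome that separated in the same way, it lay in the WT range in 1081 and its median position was 0.14. At the genes beside Arntl it was therefore near WT, as elsewhere in the genome.

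**Figure D4:**
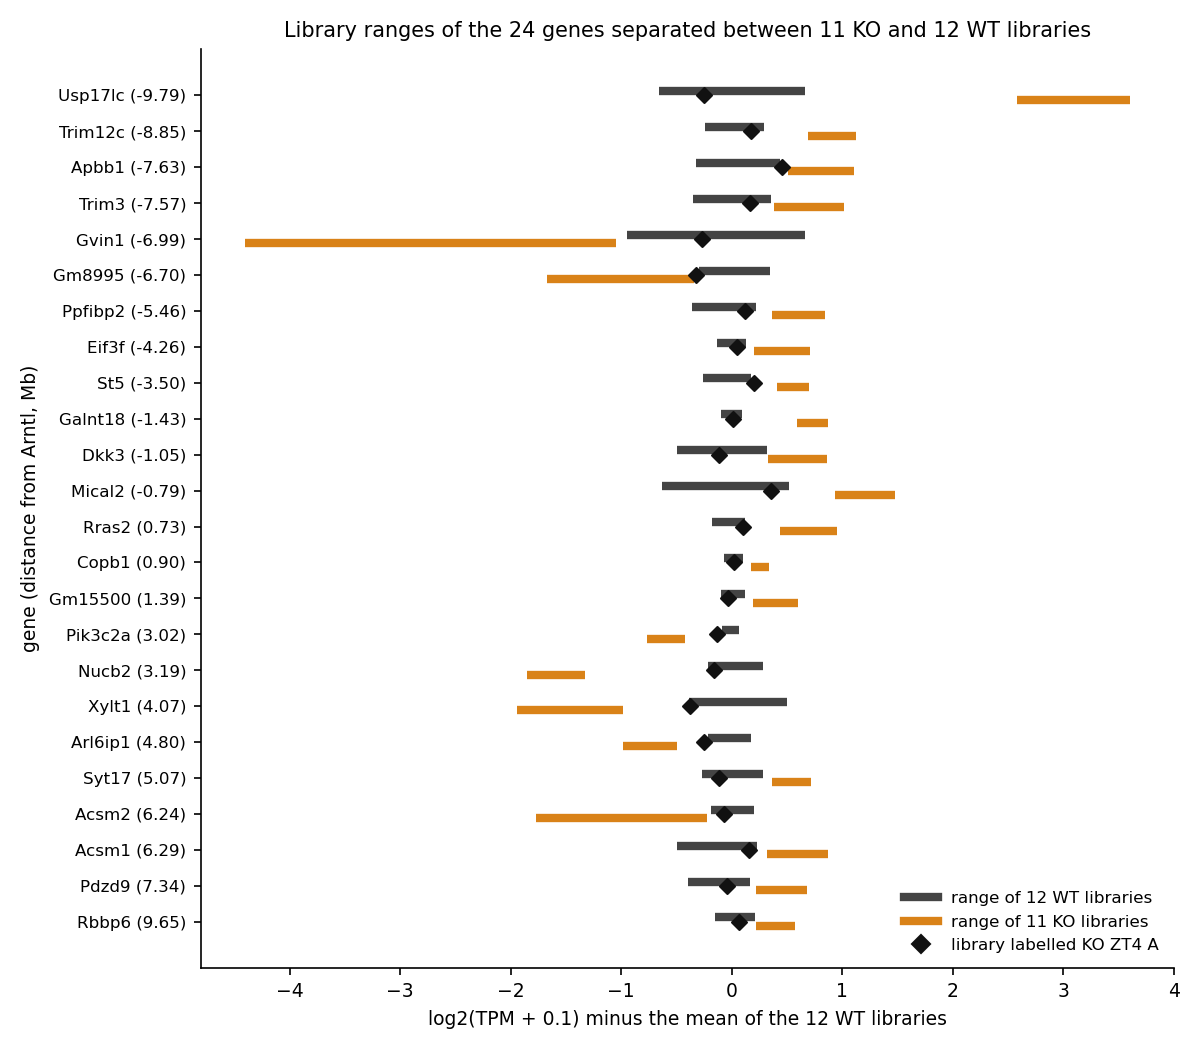
Ranges over libraries of the 24 genes whose 11 KO libraries (orange) do not overlap with the 12 WT libraries (grey), as log2(TPM + 0.1) minus the WT mean, ordered by distance from Arntl. The library labelled KO ZT4 A (black diamond) lies in the WT range for 19 of the 24 and in the KO range for none.

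Across the 109 genes, the absolute change and the distance from Arntl had a Spearman correlation of 0.05 and a Pearson correlation of 0.08, given as a description since neighbouring genes share their DNA and all share the same libraries. Called genes made up 6 of 8 within 1 Mb, 7 of 12 from 1 to 2.5 Mb, 15 of 20 from 2.5 to 5 Mb and 43 of 69 from 5 to 10 Mb. Beyond the window on chromosome 7 they made up 125 of 183 from 10 to 20 Mb and 382 of 624 farther away. Separation without the library labelled KO ZT4 A held for 37.5%, 25.0%, 30.0% and 17.4% of genes in the 4 bins of the window, 11.5% from 10 to 20 Mb, 9.62% farther on chromosome 7 and 9.97% on the other chromosomes; the 4 inner bins hold few genes, and the decline was not tested. Nearest to Arntl, Tead1, a Hippo pathway transcription factor 0.30 Mb below, and Btbd10, a protein with a BTB domain that adjoins it above, did not pass (0.05 ± 0.06 and -0.03 ± 0.09, adjusted p = 0.490 and 0.785). Of the consecutive runs in 1 direction, the longest was 6 genes from Spon1 to Insc (0.45 to 1.43 Mb above), all higher in TPM: Spon1, Rras2, Copb1, Pde3b, Gm15500 and Insc. With 50.9% of all genes called higher, such runs were not tested against the background. Under median-of-ratios scaling Spon1 left this run, which then held 5 genes, among them Gm15500, whose values cannot be told apart from those of Rpl5. Runs of 5 higher genes reached from Cavin3 to Arfip2 (7.73 to 7.57 Mb below) and from Olfml1 to St5 (5.62 to 3.50 Mb below) in TPM, of which the second alone was kept under median-of-ratios scaling. The Pik3c2a to Arl6ip1 run was the only one of 3 or more lower genes under either scaling.

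At transcript level, 213 transcripts of 105 of the genes had a mean of at least 1 TPM, and 99 differed (46.5%; all transcripts tested: 39.1%), 70 higher (all transcripts: 31.9%) and 29 lower (all transcripts: 7.13%). Knop1 and Tmem41b each had 1 transcript called higher and at least 1 called lower in TPM. For Tmem41b the higher one, Tmem41b-201 (0.22 ± 0.07, adjusted p = 0.0133), did not pass under median-of-ratios scaling (0.06, adjusted p = 0.542). For Knop1, a nucleolar protein, Knop1-205 rose by 0.42 ± 0.06 and Knop1-203 fell by 0.93 on the log2 scale (adjusted p = 5.99e-05 and 0.000420). Vps35l, a subunit of an endosomal retrieval complex, fell by 0.33 on the log2 scale as a gene. Its transcript Vps35l-203 read 1.50 to 3.83 TPM in WT and 0 to 1.14 TPM in all 12 KO libraries (-2.87 ± 0.46, adjusted p = 7.82e-05), and was 1 of 28 transcripts separate without the library labelled KO ZT4 A (13.1%; all transcripts: 5.71%), whereas Vps35l-204 did not pass (0.14 ± 0.06, adjusted p = 0.0547). Eri2-204, a retained-intron transcript of an exonuclease gene, fell by 1.50 on the log2 scale (adjusted p = 1.89e-05), and 24.7% of the words of Eri2 are shared with the overlapping Acsm3.

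Rhythms over the day in WT were about as common as in the genome. In WT, 15 of the 109 genes passed the test for a 24 h cosine (13.8%; all genes: 13.7%). In KO 1 passed, Acsm5 (0.917%; all genes: 3.64%). The difference in rhythm passed for 0 (all genes: 0.629%), by limma, with 13 at an unadjusted p under 0.05, and the test of genotype by time for 0 (all genes: 0.179%), with 12 unadjusted. Without the library labelled KO ZT4 A, 22 passed in WT (all genes: 16.6%), 1 in KO (3.74%) and 0 for the difference (0.870%). Without that and the library labelled KO ZT12 A, 24 passed in WT (all genes: 19.9%) and 5 in KO (4.74%). The WT count was 8 without WT ZT8 A (all genes: 9.27%) and 9 without either WT ZT0 A (10.0%) or WT ZT0 B (9.98%). When time entered as 6 levels and no cosine was fitted, 5 passed in WT (all genes: 4.47%) and 0 in KO (0.217%). Acsm5 ran from a mean of 27.1 TPM at ZT20 to 47.7 TPM at ZT8 in WT (fitted peak-to-trough 0.91 ± 0.10 log2 units, peak at 9.90 h, adjusted p = 3.58e-05). In KO it ran from 29.2 to 42.5 TPM at the same times (0.50 ± 0.10, peak at 7.87 h, adjusted p = 0.0236), and these rhythms did not differ past the threshold (adjusted p = 0.163). Insc fell from 2.88 TPM at ZT0 to 0.461 TPM at ZT12 in WT (2.67 ± 0.33, peak at 21.6 h, adjusted p = 7.38e-05). In KO its lowest mean was 2.38 TPM at ZT8 and its highest 5.20 TPM at ZT0 (1.08 ± 0.33, adjusted p = 0.119), and the test of the difference gave an adjusted p = 0.109. Akip1, an A-kinase interacting protein, ran from 14.1 TPM at ZT20 to 25.3 TPM at ZT8 in WT (0.96 ± 0.18, peak at 8.67 h, adjusted p = 0.00335) and did not pass in KO (0.61 ± 0.18, adjusted p = 0.107). The KO means at ZT4 average a library that goes against its label with 1 that does not.

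**Figure D5:**
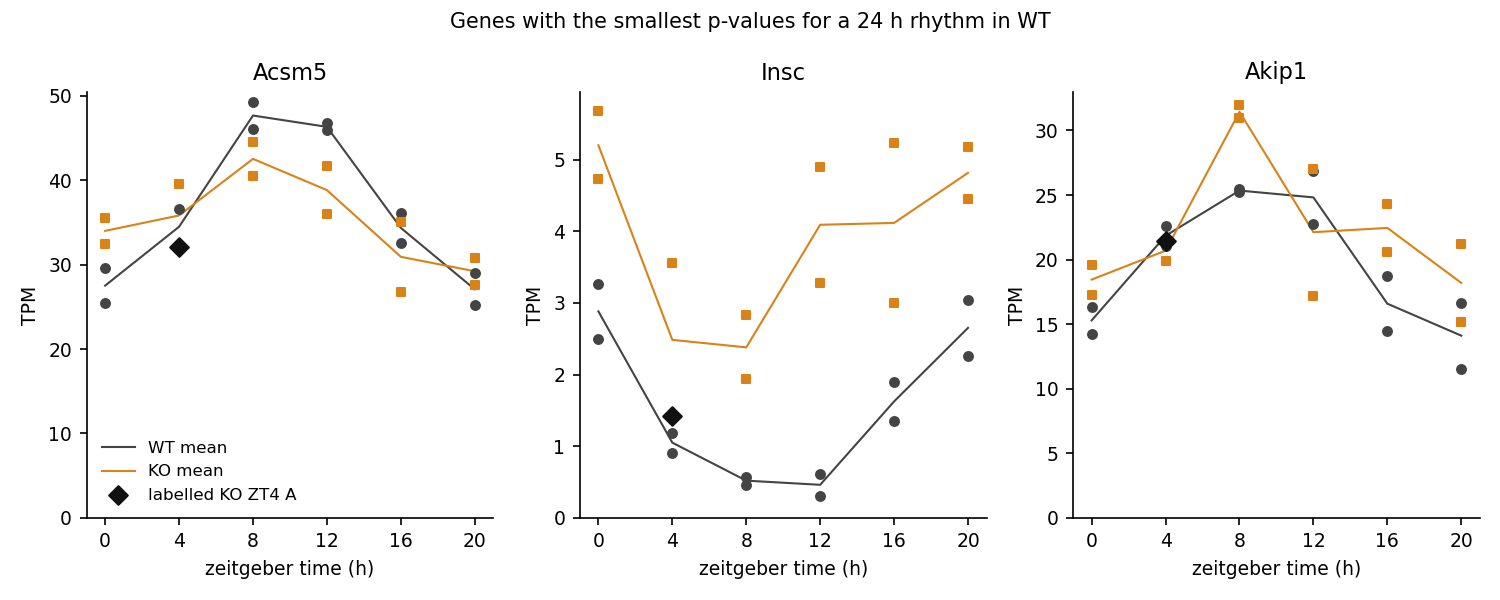
TPM of Acsm5, Insc and Akip1 at each zeitgeber time (h), with WT in grey and KO in orange; points are single libraries, lines join the means of 2 libraries, and the black diamond is the library labelled KO ZT4 A. Acsm5 and Akip1 have their highest WT mean at ZT8, and every KO mean of Insc lies above the WT mean of the same time.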

How the data were processed

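Polyadenylated RNA of 24 kidney libraries was analysed; 20 4C-seq libraries of the same series were not used here. The authors deposited TPM per transcript, made with kallisto 0.42.4 per the submitters' processing notes, which also name mm10 and GRCm38. The index and annotation are not given in the sources used here. The deposited TPM of a library add up to 999999 to 1000001, so depth is unknown and no counting interval was computed.

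Transcripts were summed to genes through GENCODE M21 by identifier without version (86119 of 88198 matched), and the unmatched held 1.35% to 2.24% of TPM per library. Genes that reached a mean of 1 TPM were tested as log2(TPM + 0.1) with limma 3.58.1 in R 4.3.3 (lmFit and eBayes, trend and robust set; two-sided or F tests), over all 24 libraries, with Benjamini-Hochberg adjustment over all 12874 genes and a threshold of 0.05. The genotype coefficient was fitted with time as a 6-level factor, and rhythm by a 24 h cosine and sine per genotype. Log2 changes carry the standard error of the model. Fold changes on this scale understate the change of low genes. The tests were first tried on simulated data. Groups, times and letters came from the labels alone. Libraries of the same letter were not paired in the main tests.

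Shared words are the share of a gene's 31-base words, over its annotated transcripts, that also occur in another gene. A gene was called separate where the ranges of the groups did not overlap. The text names genes by rule: up to 8 in each direction with the largest change at the same sign at all 6 times, the 3 nearest to Arntl on each side, the 3 of smallest p-value for each rhythm test, those without overlap, the 3 of highest level and the 3 of highest level in each list. Other genes were named after their values were seen. The genes and lists were chosen with earlier results of these data known. Other settings tried were pseudocounts of 1 and 0.01, no filter or one at 5 TPM, scaling by median of ratios, a block for the replicate letter, plain eBayes, the time term, a window of 5 Mb and each library left out in turn; leaving out 2 KO libraries together was added after seeing the data, as were the alternatives for transcripts.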

Additional observations from a re-analysis of the deposited data

How the results depend on the processing

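The count of 71 called genes was 66 to 72 when each library was left out in turn, and the median change 0.12 to 0.16. Without a filter on low values the median change was 0.059, and under median-of-ratios scaling it was 0.000141. The 8 genes past 1 log2 unit became 4 at a pseudocount of 1 TPM and 1 among genes of at least 5 TPM. Within 5 Mb, which holds fewer genes, 28 of 40 were called, 4 past 1 log2 unit, 7 rhythmic in WT, 0 in KO and 3 without overlap. The rhythmic count in WT was 8 to 22 over left-out libraries, 5 with time as a 6-level factor and 24 without the libraries labelled KO ZT4 A and KO ZT12 A; in KO it was 0 to 3, 0 and 5, and 4 under median-of-ratios scaling. Genes without overlap numbered 5 to 24 over left-out libraries and 24 without both; leaving out the library labelled KO ZT4 A gave 24, and each of the other 23 gave 5 or 6. Called transcripts numbered 90 to 103, and 55 at 5 TPM or more. The cause of these shifts was not tested, apart from the smaller sets of genes.

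Under median-of-ratios scaling genes near 0 turned in sign, namely Tead1 (-0.10), Tpp1 (-0.14), Eif4g2 (-0.12), Taf10 (-0.11), Ipo7 (-0.018), Mrpl17 (-0.026), Mettl9 (-0.090), Timm10b (-0.10), Rnf141 (-0.077) and Usp47 (-0.10). Leaving out each library in turn gave Btbd10 -0.067 to 0.020, Acsm5 -0.051 to 0.012, Gde1 -0.026 to 0.0038, Tpp1 -0.0032 to 0.019, Anks4b -0.037 to 0.011 and Crym -0.037 to 0.0073, and leaving out both turned Acsm5 (0.023). With a replicate block 71, 8, 15, 1 and 0 genes were called for the genotype, for 1 log2 unit, for rhythm in WT and KO and for their difference, and 100 transcripts. The correlation of same-letter deviations was -0.089 to 0.15 and passed 0.1 in 1 of 6 times, so the values showed little pairing by letter. Whether libraries of the same letter were handled together is not given. TPM hold no depth, so the precision of low values could not be set.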
